A study of Mus musculus with 6 samples.

Results

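The genes described here build, fill and watch over the endoplasmic reticulum (ER), the compartment in which a cell folds the proteins it secretes or places in its membranes. They are 38 of the 16840 genes in the deposited count table, taken as a named list of ER folding, translocation, degradation and stress-sensing genes. No measured value entered the rule, but the list was chosen with earlier results of these data known. The counts of called genes below are therefore not those of a list chosen blind to the data. All 38 were found in the table, Ero1l under the older symbol of Ero1a, and all 38 passed the filter on low counts, with the lowest at 161 counts in a library. RNA had been sequenced from cultured wild-type alveolar macrophages of the mouse, which reside in the lung's air spaces, at day 2. There were 3 groups of 2 libraries: GM-CSF with DON, GM-CSF alone, and no GM-CSF, where GM-CSF is the granulocyte-macrophage colony-stimulating factor, a cytokine. All groups were wild type, and the labels give no age, no dose and no full name for DON. They call the cells a cell line, AM, and leave unstated whether it was primary or established. Nothing in them ties the replicates to different cultures or mice, and the p-values therefore describe the spread among these libraries, which may be technical.

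Nascent secretory and membrane proteins enter the ER through the SEC61 channel, lose their signal peptide to the signal peptidase, are folded by chaperones such as BiP and by disulfide isomerases, and leave in vesicles coated by COPII. Proteins that fail to fold are pulled back to the cytosol and degraded, a route called ER-associated degradation. When unfolded proteins accumulate, the sensors ATF6, IRE1 (gene Ern1) and PERK (gene Eif2ak3) start the unfolded protein response, which raises the transcription of chaperones and degradation factors, in part through the transcription factor XBP1. Alveolar macrophages depend on GM-CSF for their development and upkeep.

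Total counts were between 28321986 and 35196387 per library. All 8 alveolar macrophage markers were detected, and they did not move together: with GM-CSF alone, relative to no GM-CSF, edgeR's test described below called 3 higher (Car4, Mrc1 and Chi3l3) and 4 lower (Fabp4, Siglec5, Pparg and Marco), while Itgax was not called. With DON, relative to GM-CSF alone, 5 were higher and 2 lower. Car4 was close to 0 in the group without GM-CSF. It measured 325 and 303 CPM (TMM-normalised counts relative to library size) with DON and 661 and 652 CPM with GM-CSF alone, against 0.22 and 0.24 CPM without GM-CSF. Fabp4 measured 518 and 479 CPM with DON, 335 and 309.5 CPM with GM-CSF alone, and 686 and 733 CPM without GM-CSF. Markers of plasma cells and B cells were at or near 0: 5 of 8 were in the table, with summed counts of 2 and 4 in the libraries with DON, 1 and 5 with GM-CSF alone, and 7 and 7 without GM-CSF. Lung epithelial markers (7 of 8 in the table) summed to 44 and 30 counts with DON, 45 and 48 with GM-CSF alone, and 106 and 165 without GM-CSF. T cell markers (4 of 6) summed to 42 and 35 counts with DON, 44 and 25 with GM-CSF alone, and 53 and 41 without GM-CSF. Stromal and endothelial markers (7 of 7) summed to 43 and 53 counts with DON, 65 and 52 with GM-CSF alone, and 14 and 27 without GM-CSF. Most of that sum with GM-CSF alone was Cdh5, an endothelial cadherin, with 15 and 26 counts with DON, 44 and 46 with GM-CSF alone, and 2 and 1 without GM-CSF; it was called higher with GM-CSF. The part of these markers in the results was not tested. These are bulk libraries, in which fewer cells of a type and less RNA per cell cannot be told apart.

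Nearly the whole list was higher with GM-CSF. Genes were called at an adjusted p under 0.05 in a quasi-likelihood test (edgeR, with the Benjamini-Hochberg method applied over 12340 genes). By this test 35 of the 38 genes were higher with GM-CSF than without it, 1 (Ern1) was lower and 2 (Atf6 and Eif2ak3) were not called. Over all genes tested 27.5% were called higher and 29.3% lower. The median log2 fold change was 0.57 over the 38 genes, a 1.48-fold difference, and -0.02 over all genes. Both libraries with GM-CSF lay above both libraries without it for 35 genes, below them for 2, and overlapped with them for 1. Over all genes tested 38.1% lay above and 40.6% below in this way.

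With DON on top of GM-CSF the list divided, with more genes lower than higher. In this comparison 23 genes fell and 9 rose relative to GM-CSF alone, while 6 were not called; over all genes tested 28.8% were called higher and 28.8% lower. The median log2 fold change was -0.17 over the 38 genes and 0.01 over all genes. The 12 genes of the translocon, the signal peptidase and the COPII coat gave 11 of the 23 that fell and none of those that rose. The 9 that rose were the BiP gene Hspa5, its co-chaperone Dnajb9, the oxidase Ero1l, the degradation genes Herpud1, Sel1l and Derl1, and the stress regulators Atf6, Ern1 and Xbp1.

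Set against cells without GM-CSF, the cells with both GM-CSF and DON had 30 of the 38 genes higher, 1 (Sec24d) lower and 7 not called, where 27.2% of all genes tested were called higher and 28.4% lower. The median log2 fold change was 0.32, against 0.57 for GM-CSF alone. The most common sequence of calls, in 17 genes, was higher with GM-CSF, lower with DON than with GM-CSF alone, and still higher with DON than without GM-CSF. That is 44.7% of the list, and 3.76% of all genes tested (464) had the same sequence. A further 7 genes, 18.4% of the list, were higher in every comparison, as were 3.06% of all genes tested (377). The comparisons share libraries, so these sequences of calls describe the levels of the 3 groups and are not independent results.

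**Figure D1:**
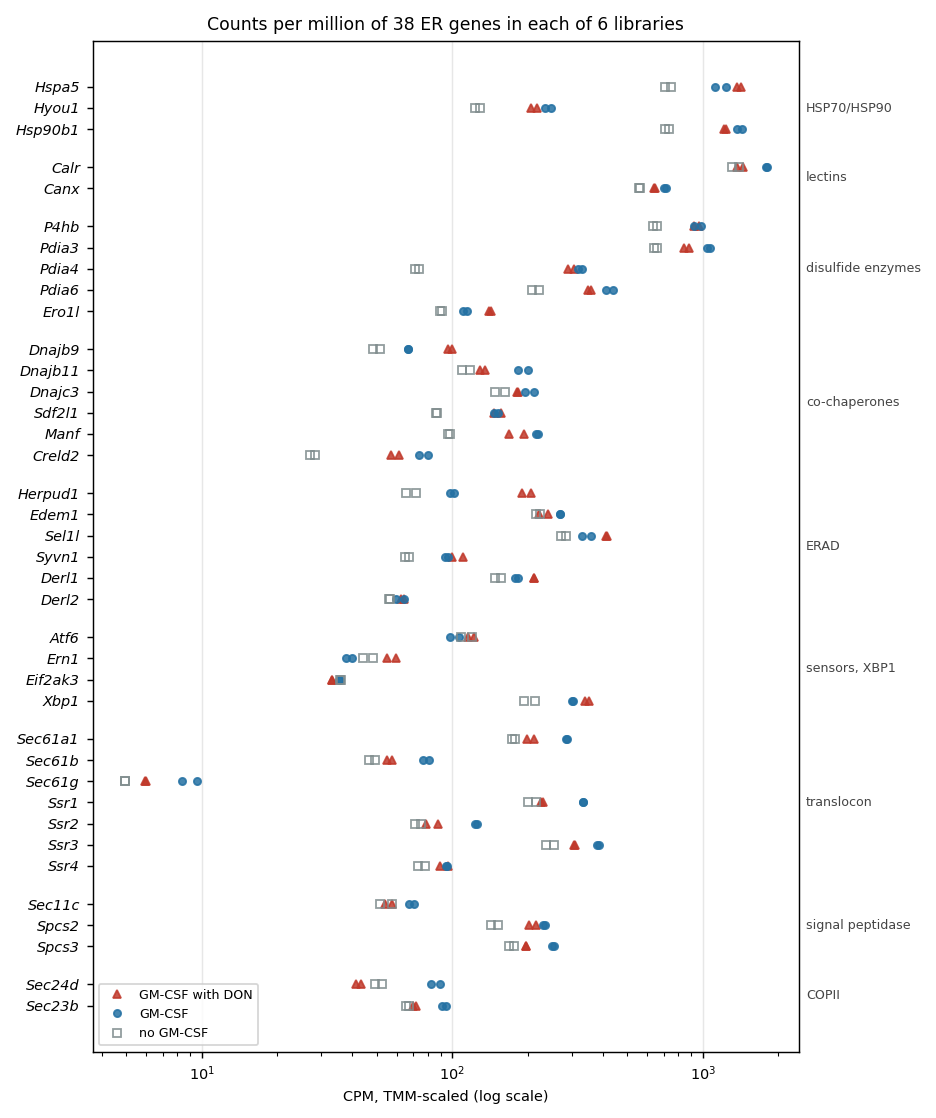
CPM of the 38 genes (log scale) in each of the 6 libraries: triangles for GM-CSF with DON, circles for GM-CSF alone and open squares for no GM-CSF. For 35 genes both circles lie above both squares, and for Herpud1 the triangles, at 206 and 189 CPM, lie far above the circles, at 97.95 and 102 CPM.

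Promoters of ER stress genes carry known response elements, among them the ER stress response element (ERSE, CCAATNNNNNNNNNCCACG), its compact form ERSE-II (ATTGGNCCACG) and the core of the unfolded protein response element (UPRE core, TGACGTG). Exact matches on either strand were sought in RefSeq promoter windows of build GRCm38.p6, which run from 250 bases before the annotated gene start to 50 bases after it. A window was found for 30 of the 38 genes. An ERSE was present for 8 of them (Hspa5, Hsp90b1, Calr, Canx, Pdia6, Dnajc3, Creld2 and Syvn1) and an ERSE-II for 2 (Herpud1 and Dnajb11), together 10 of 30 genes or 33.3%, and 31.2% of their 32 windows. Over all 32851 promoter windows the shares were 0.119% for ERSE, 0.0365% for ERSE-II and 0.155% for either. The elements are known from promoters of ER stress genes, and the list holds such genes. The larger share in the list is therefore not an independent result. The UPRE core was found for 2 genes, Hspa5 and Sec24d, and in 2.01% of all windows. In these genes no match of an element overlapped a match of another. These sequences are shown because they hold the matches; the Hspa5 window is given whole and the others with 20 bases on each side, in the direction of the gene, with ERSE or ERSE-II letters in capitals. The UPRE core of Hspa5, at positions -157 to -151 from the gene start, is left in lower case.
Hspa5: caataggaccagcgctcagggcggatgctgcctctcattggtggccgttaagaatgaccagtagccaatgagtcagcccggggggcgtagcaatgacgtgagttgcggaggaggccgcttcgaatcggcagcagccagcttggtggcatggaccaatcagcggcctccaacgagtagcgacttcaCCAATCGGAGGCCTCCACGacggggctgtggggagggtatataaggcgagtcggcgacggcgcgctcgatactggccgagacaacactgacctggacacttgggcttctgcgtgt
Hsp90b1, upstream copy: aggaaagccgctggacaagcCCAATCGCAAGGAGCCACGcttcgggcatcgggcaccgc
Hsp90b1, downstream copy: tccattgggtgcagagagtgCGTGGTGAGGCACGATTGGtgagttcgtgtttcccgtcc
Calr: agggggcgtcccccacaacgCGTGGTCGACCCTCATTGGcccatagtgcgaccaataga
Canx: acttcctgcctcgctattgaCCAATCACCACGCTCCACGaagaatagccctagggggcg
Pdia6: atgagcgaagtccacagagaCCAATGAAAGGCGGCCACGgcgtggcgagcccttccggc
Dnajc3: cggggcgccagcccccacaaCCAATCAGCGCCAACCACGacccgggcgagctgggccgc
Creld2: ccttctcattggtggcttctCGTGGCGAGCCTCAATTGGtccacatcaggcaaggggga
Syvn1: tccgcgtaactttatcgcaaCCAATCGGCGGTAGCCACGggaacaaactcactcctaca
Herpud1: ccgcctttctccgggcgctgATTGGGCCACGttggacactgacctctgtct
Dnajb11: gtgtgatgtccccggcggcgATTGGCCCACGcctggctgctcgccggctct
The Hspa5 window spans chr2:34771840-34772139 on the plus strand. The stretches of Hsp90b1 lie at chr10:86705618-86705676 and chr10:86705513-86705571, that of Calr at chr8:84847055-84847113 and that of Canx at chr11:50325780-50325838, all on the minus strand. On the plus strand are those of Pdia6 (chr12:17266471-17266529), Dnajc3 (chr14:118937807-118937865), Creld2 (chr15:88819500-88819558), Syvn1 (chr19:6046512-6046570), Herpud1 (chr8:94386357-94386407) and Dnajb11 (chr16:22857832-22857882). The match of Calr, that of Creld2 and the downstream match of Hsp90b1 read on the opposite strand, where the capitals begin with CGTGG.

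With GM-CSF all 10 genes holding ERSE or ERSE-II rose, with a median log2 fold change of 0.62, as did 18 of the 20 genes with a window and neither element, with a median of 0.57. With DON, relative to GM-CSF alone, 2 of the 10 genes rose, 7 fell and 1 was not called (median -0.18), against 5, 10 and 5 of the 20 genes without either element (median -0.11). Over all genes tested 27.5% were called higher with GM-CSF, and 28.8% were called higher and 28.8% lower with DON. The part that rose with DON was thus not above that of all genes, with or without an element. A match is a description of the letters in these windows and was not tested as a site. The windows follow RefSeq starts, which differ from the GRCm38 annotation for some genes. For Pdia4, counted as lacking an element, and for Dnajc3, bases just after the RefSeq start were not found in an annotated transcript. The Pdia4 window lies wholly upstream of the annotated start, and that of Spcs2 lies within the annotated gene, away from its start. The window of Dnajb9, also counted as lacking an element, lies within its annotated gene too, as does a further window of Derl2 and of Sec23b. The ERSE of Hspa5 and the UPRE core of Sec24d precede the RefSeq start but lie within the annotated gene.

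**Figure D2:**
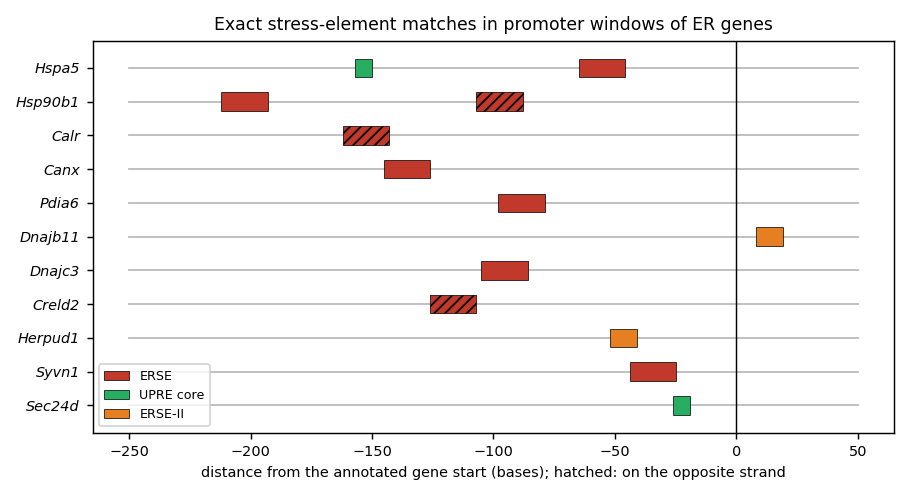
Exact matches of ERSE (red), ERSE-II (orange) and the UPRE core (green) in the promoter windows of the 11 genes that hold any, by distance in bases from the annotated gene start (vertical line); hatched boxes read on the opposite strand. The matches begin between position -212 (Hsp90b1) and position 8 (Dnajb11), counted from the gene start.

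Among the major lumenal chaperones, Hspa5 encodes BiP, the HSP70 of the ER that also holds the stress sensors inactive. It stood at 1425 and 1364 CPM with DON, 1121 and 1236 CPM with GM-CSF alone, and 706 and 748 CPM without GM-CSF, so the 3 groups did not overlap. It lies at chr2:34771970-34777547 in the GRCm38 annotation, and its window above holds both an ERSE and a UPRE core. The log2 fold change was 0.70 ± 0.05 (SE) for GM-CSF against no GM-CSF and 0.24 ± 0.05 for DON against GM-CSF alone. Hsp90b1, the HSP90 of the ER (GRP94), measured 1234 and 1212 CPM with DON, 1375 and 1436 CPM with GM-CSF alone, and 708 and 735 CPM without GM-CSF. Hyou1, an HSP70-like protein that drives nucleotide exchange on BiP, measured 218 and 206 CPM, 234 and 248 CPM, and 123 and 129 CPM in the same order. Both rose with GM-CSF (log2 fold changes 0.96 ± 0.04 for Hsp90b1 and 0.93 ± 0.05 for Hyou1) and, unlike Hspa5, fell with DON (-0.20 ± 0.04 and -0.18 ± 0.05). The fall of Hyou1 was not called without the second library with DON (adjusted p = 0.0887 in edgeR's test), without the second library with GM-CSF alone (0.0826), or with upper quartile scaling (0.105).

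The lectin chaperones calreticulin and calnexin hold glycoproteins in a folding cycle. Calr measured 1450.1 and 1374 CPM with DON, 1785 and 1799.5 CPM with GM-CSF alone, and 1315 and 1391 CPM without GM-CSF. The libraries with DON thus overlapped with those without GM-CSF, and both groups lay below GM-CSF alone. Canx measured 638 and 647 CPM with DON, 703 and 716 CPM with GM-CSF alone, and 555 and 563 CPM without GM-CSF. Both genes rose with GM-CSF (log2 fold changes 0.41 ± 0.04 for Calr and 0.34 ± 0.04 for Canx) and fell with DON (-0.34 ± 0.04 and -0.14 ± 0.04). The fall of Canx was not called with upper quartile scaling (adjusted p = 0.167 in edgeR's test).

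The largest response to GM-CSF in the list was that of Pdia4 (chr6:47796141-47813430), a disulfide isomerase of the ER lumen. It measured 307 and 289 CPM with DON, 317 and 331 CPM with GM-CSF alone, and 71.3 and 74.0 CPM without GM-CSF. Its log2 fold change was 2.16 ± 0.05 for GM-CSF against no GM-CSF, a 4.46-fold difference (adjusted p = 5.92e-10 in edgeR's test). Among the other disulfide enzymes of the 38 genes, Pdia6 had 0.98 ± 0.05 and Pdia3, the isomerase that works with calreticulin and calnexin, 0.70 ± 0.04. Pdia6 measured 358 and 348 CPM with DON, 412 and 438 CPM with GM-CSF alone, and 208 and 222 CPM without GM-CSF. Pdia3 measured 878 and 843 CPM, 1038 and 1064 CPM, and 636 and 656 CPM in that order. Both fell with DON (-0.27 ± 0.05 for Pdia6 and -0.29 ± 0.04 for Pdia3), and in neither did any 2 groups overlap. Pdia4 passed with DON by a narrow margin (-0.12 ± 0.05, adjusted p = 0.0499 in edgeR's test) and its call was lost without the second library with DON (0.297) or without the first (0.0614) or the second (0.231) library with GM-CSF alone. It was also lost with no filter on low counts (0.0654) and with upper quartile scaling (0.473).

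P4hb, the protein disulfide isomerase that is also a subunit of collagen prolyl hydroxylase, rose with GM-CSF (0.56 ± 0.04) and had a log2 fold change of -0.02 ± 0.04 with DON. Its levels were 968 and 921 CPM with DON, 925 and 985 CPM with GM-CSF alone, and 636 and 657 CPM without GM-CSF, with the first pair of groups overlapping. Ero1l, the oxidase that recharges these isomerases, went against its group. It measured 140.0 and 143 CPM with DON, 111 and 114 CPM with GM-CSF alone, and 89.8 and 91.0 CPM without GM-CSF, with log2 fold changes of 0.32 ± 0.05 for GM-CSF and 0.33 ± 0.04 for DON.

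All 6 co-chaperones and secreted ER stress proteins rose with GM-CSF. The largest rises were those of Creld2, a secreted protein induced by ER stress, and Manf, a BiP-binding protein that is also secreted. Creld2 measured 61.2 and 57.0 CPM with DON, 73.9 and 79.8 CPM with GM-CSF alone, and 27.1 and 28.4 CPM without GM-CSF, a log2 fold change of 1.47 ± 0.06 for GM-CSF. Manf measured 194 and 169 CPM, 217 and 221 CPM, and 96.0 and 97.7 CPM in that order, a log2 fold change of 1.18 ± 0.06. For both genes the 3 groups kept apart, with DON between the others. Sdf2l1, a component of the BiP complex with Dnajb11, rose by 0.79 ± 0.05 with GM-CSF, and its libraries with DON (156 and 147 CPM) overlapped with those with GM-CSF alone (146 and 153 CPM), while both lay above no GM-CSF (87.3 and 86.0 CPM).

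With DON 4 of these 6 genes fell, Sdf2l1 was not called and 1 rose. Dnajb11, a BiP co-chaperone that binds unfolded proteins, fell by the most: 135 and 129 CPM with DON, 184 and 200.4 CPM with GM-CSF alone, and 109 and 117 CPM without GM-CSF, a log2 fold change of -0.54 ± 0.06 for DON. Creld2 had a value of -0.38 ± 0.06 and Manf of -0.27 ± 0.06. Dnajc3, which dampens PERK, had -0.16 ± 0.06 for DON; its call was lost without the first (adjusted p = 0.095 in edgeR's test) or the second (0.130) library with DON, without the second library with GM-CSF alone (0.223), or with upper quartile scaling (0.234). Dnajb9, a co-chaperone that recruits BiP to IRE1, went the other way. It measured 99.8 and 96.0 CPM with DON, 66.6 and 66.9 CPM with GM-CSF alone, and 48.3 and 51.5 CPM without GM-CSF, with log2 fold changes of 0.55 ± 0.05 for DON and 0.42 ± 0.05 for GM-CSF.

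In ER-associated degradation all 6 genes rose with GM-CSF, with a median log2 fold change of 0.30. That was below the 0.93 of the HSP70 and HSP90 genes and close to the 0.38 of the lectin chaperones. With DON 3 of the 6 degradation genes rose, 1 fell and 2 were not called. Herpud1, a membrane protein that organises the degradation complex, gave the largest rise with DON of the whole list. Its levels were 206 and 189 CPM with DON, 97.95 and 102 CPM with GM-CSF alone, and 65.6 and 71.8 CPM without GM-CSF. The log2 fold change for DON was 0.98 ± 0.06, a 1.97-fold difference (adjusted p = 7.4e-07 in edgeR's test), and for GM-CSF 0.54 ± 0.06. Herpud1 lies at chr8:94386438-94395377, and the ERSE-II printed above ends at position -42 from its annotated RefSeq start.

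Sel1l, the adaptor of the degradation ubiquitin ligase, measured 411 and 416 CPM with DON, 331 and 357 CPM with GM-CSF alone, and 285 and 271 CPM without GM-CSF. Derl1, a membrane protein of the same machinery, measured 212 and 212 CPM, 178 and 184 CPM, and 149 and 157 CPM in that order. Both rose with GM-CSF (0.31 ± 0.05 and 0.24 ± 0.05) and with DON (0.26 ± 0.05 and 0.23 ± 0.04). Syvn1, the ubiquitin ligase itself, rose with GM-CSF (0.52 ± 0.06; 93.8 and 96.3 CPM with GM-CSF alone against 65.1 and 67.2 CPM without it). With DON it stood at 110.3 and 99.8 CPM, just short of the threshold (0.14 ± 0.06, adjusted p = 0.0511 in edgeR's test). With all libraries kept, it was called in edgeR's test under upper quartile scaling (0.00791) and with only the groups compared (0.0404), and by limma-voom (0.048). It passed when the second library with DON (0.0148), or the first (0.0489) or the second (0.0477) library without GM-CSF, was left out. Edem1, which marks misfolded glycoproteins for disposal, was the degradation gene that fell with DON, at 222 and 241 CPM with DON, 270.4 and 269 CPM with GM-CSF alone, and 217 and 223 CPM without GM-CSF (-0.22 ± 0.05). Derl2 changed least: 64.2 and 62.6 CPM with DON, 64.1 and 59.8 CPM with GM-CSF alone, and 56.2 and 56.5 CPM without GM-CSF. Its rise with GM-CSF was at the threshold (0.14 ± 0.05, adjusted p = 0.0491 in edgeR's test), and no call remained when any library other than the second with GM-CSF alone was left out, with adjusted p between 0.0624 and 0.295. Nor was it called with upper quartile scaling (0.135), with no filter on low counts (0.0629) or by DESeq2 (0.11).

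None of the 3 stress sensors rose with GM-CSF. Eif2ak3, which encodes PERK, had 33.2 and 33.1 CPM with DON, 35.4 and 35.8 CPM with GM-CSF alone, and 36.01 and 35.7 CPM without GM-CSF, and was called in no comparison (log2 fold changes -0.01 ± 0.05 for GM-CSF and -0.10 ± 0.05 for DON). Ern1, which encodes IRE1, was the single gene of the list that fell with GM-CSF and rose with DON: 54.9 and 59.8 CPM with DON, 37.6 and 39.8 CPM with GM-CSF alone, and 48.5 and 44.0 CPM without GM-CSF. Its log2 fold change was -0.26 ± 0.07 for GM-CSF and 0.57 ± 0.07 for DON. The fall with GM-CSF was not called without the first library with GM-CSF alone (adjusted p = 0.082 in edgeR's test), without the first library without GM-CSF (0.0665), or when total counts alone set the scale (0.119).

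Atf6 measured 116 and 122 CPM with DON, 97.8 and 106 CPM with GM-CSF alone, and 120.2 and 108 CPM without GM-CSF. Its log2 fold change of -0.16 ± 0.06 for GM-CSF just missed the threshold (adjusted p = 0.0504 in edgeR's test) and passed without the second library with GM-CSF alone (0.0463) or the second without GM-CSF (0.00814). The rise of Atf6 with DON, 0.22 ± 0.06, was not called without the second library with DON (0.0877) or the first with GM-CSF alone (0.126). Xbp1, whose RNA is spliced by IRE1 to make the active factor, measured 351 and 339 CPM with DON, 305 and 300.2 CPM with GM-CSF alone, and 194 and 214 CPM without GM-CSF. The gene counts do not separate its spliced and unspliced forms. Its rise was clear with GM-CSF (0.57 ± 0.05) and smaller with DON (0.19 ± 0.05), where it was not called without the first library with DON (0.0667) or the second with GM-CSF alone (0.0614).

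The translocon genes moved together. All 7 genes rose with GM-CSF and 6 of 7 fell with DON; the medians were 0.70 and -0.49. Sec61a1, the pore of the SEC61 channel, measured 211 and 198 CPM with DON, 284 and 287 CPM with GM-CSF alone, and 174 and 179 CPM without GM-CSF. Its log2 fold changes were 0.70 ± 0.05 for GM-CSF and -0.48 ± 0.05 for DON. The small channel subunits were close to it in fold change, Sec61b at 0.72 ± 0.06 and -0.49 ± 0.06 and Sec61g at 0.86 ± 0.11 and -0.58 ± 0.11. Sec61g had the lowest counts of the list, with 6.01 and 5.96 CPM with DON, 9.57 and 8.33 CPM with GM-CSF alone, and 4.95 and 4.93 CPM without GM-CSF.

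The Ssr genes encode the translocon-associated protein complex, which sits beside the channel and helps certain proteins through it. Ssr1 measured 231 and 225 CPM with DON, 332 and 332 CPM with GM-CSF alone, and 201 and 216 CPM without GM-CSF. Ssr2 measured 88.0 and 78.6 CPM, 124 and 126 CPM, and 71.4 and 75.3 CPM, and Ssr3 310.1 and 305 CPM, 379 and 387 CPM, and 236 and 255 CPM, in the same order. The log2 fold changes for DON were -0.54 ± 0.05, -0.58 ± 0.06 and -0.32 ± 0.05. Ssr4 stood apart from the other 3 subunits: with DON it measured 95.8 and 89.8 CPM, overlapping with 94.7 and 94.9 CPM with GM-CSF alone, a log2 fold change of -0.03 ± 0.05, and it was also the smallest of the 7 rises with GM-CSF (0.33 ± 0.05, against 73.2 and 78.0 CPM without GM-CSF). Whether Ssr4 differed from the other subunits was not tested.

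All 3 signal peptidase genes and both COPII genes rose with GM-CSF and fell with DON. Spcs3, a signal peptidase subunit, measured 198 and 196 CPM with DON, 251 and 255 CPM with GM-CSF alone, and 169 and 177 CPM without GM-CSF, with log2 fold changes of 0.55 ± 0.04 for GM-CSF and -0.36 ± 0.04 for DON. Sec11c, a catalytic subunit, rose with GM-CSF by 0.33 ± 0.06 and fell with DON (-0.31 ± 0.06), to 57.8 and 53.8 CPM with DON, against 70.2 and 67.6 CPM with GM-CSF alone and 51.6 and 57.6 CPM without GM-CSF. Spcs2, at 216 and 202 CPM with DON, 231 and 234 CPM with GM-CSF alone, and 144 and 152 CPM without GM-CSF, had 0.65 ± 0.05 for GM-CSF and -0.15 ± 0.05 for DON. That last call was lost without the second library with DON (adjusted p = 0.171 in edgeR's test) or either library with GM-CSF alone (0.0675 and 0.0931), and with upper quartile scaling (0.235).

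Sec24d, a cargo-binding subunit of the COPII inner coat, gave the largest fall with DON of the list. It was the only gene of the 38 called lower with DON than without GM-CSF. It measured 41.4 and 43.2 CPM with DON, 82.1 and 89.5 CPM with GM-CSF alone, and 52.5 and 49.4 CPM without GM-CSF. The log2 fold change for DON was -1.02 ± 0.06, a 2.03-fold difference (adjusted p = 6.79e-07 in edgeR's test), and for GM-CSF 0.75 ± 0.06; against no GM-CSF the value with DON was -0.27 ± 0.06. Its gene lies at chr3:123267455-123365641. Sec23b, its partner in the inner coat, measured 71.9 and 69.9 CPM with DON, 91.0 and 94.5 CPM with GM-CSF alone, and 67.2 and 65.5 CPM without GM-CSF, with 0.48 ± 0.05 for GM-CSF and -0.39 ± 0.05 for DON.

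**Figure D3:**
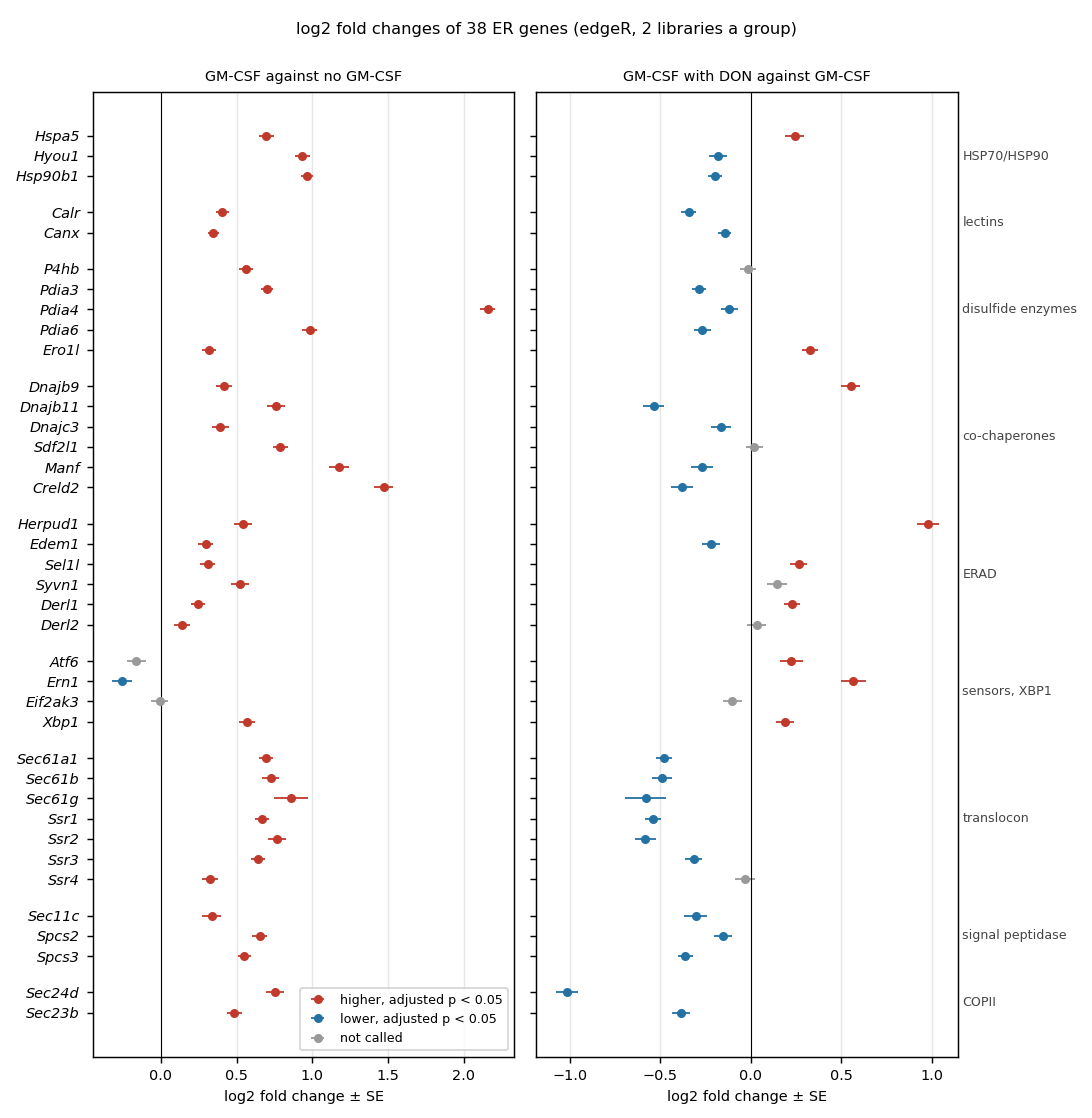
log2 fold changes with their SE for the 38 genes, GM-CSF against no GM-CSF on the left and GM-CSF with DON against GM-CSF on the right; red and blue mark genes called higher or lower in edgeR's test and grey those not called. On the left 35 genes are red, with Pdia4 farthest out at 2.16, and on the right 23 are blue, down to Sec24d at -1.02, and 9 red, up to Herpud1 at 0.98.

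In cells with both GM-CSF and DON most folding genes were higher than without GM-CSF. All 3 HSP70 and HSP90 genes, all 5 disulfide enzymes and all 6 co-chaperones were called higher, led by Pdia4 (log2 fold change 2.04 ± 0.05), Herpud1 among the degradation genes (1.52 ± 0.06), Creld2 (1.09 ± 0.06), Dnajb9 (0.97 ± 0.05) and Hspa5 (0.94 ± 0.05). The translocon lay close to the level without GM-CSF, with 6 of 7 called higher but a median of 0.23, and the COPII genes had 1 lower and 1 not called. Calr (0.06 ± 0.04), Edem1 (0.08 ± 0.05), Sec61g (0.28 ± 0.12), Sec11c (0.03 ± 0.07) and Sec23b (0.10 ± 0.05) were not called, nor were Atf6 (0.06 ± 0.06) and Eif2ak3 (-0.11 ± 0.05). Several of the small rises rested on single libraries. Without the first library without GM-CSF, the adjusted p in edgeR's test was 0.277 for Ssr1, 0.130 for Ssr2, 0.0543 for Dnajb11, 0.0521 for Dnajc3 and 0.0778 for Derl2. Without the first library with DON it was 0.153 for Ssr1, 0.213 for Ssr2, 0.0668 for Dnajb11 and 0.0989 for Derl2. Derl2 also missed the threshold without the second library without GM-CSF (0.0611), and Ssr1 without the second with DON (0.0613) or the first (0.0583) or second (0.0577) with GM-CSF alone. By DESeq2 the adjusted p was 0.0723 for Derl2 and 0.0507 for Ssr1, and Ssr1 also missed with only the groups compared (0.051 in edgeR's test). The count of genes called higher was 25 without that first library of the group without GM-CSF and 26 without the first with DON, against 30 with all libraries.

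Together the 38 genes took 1.18 ± 0.0158% of all counts with DON, 1.31 ± 0.0349% with GM-CSF alone and 0.785 ± 0.0281% without GM-CSF (SD, n = 2). The 6 degradation genes of the list took 0.124 ± 0.000928% with DON, 0.109 ± 0.0025% with GM-CSF alone and 0.0801 ± 0.00128% without GM-CSF. The translocon took 0.0996 ± 0.00199%, 0.135 ± 0.000563% and 0.0792 ± 0.00366% in the same order. Degradation genes outside the list, 15 in number and described below, were instead lowest with DON. They took 0.146 ± 0.000574%, 0.175 ± 0.000194% and 0.149 ± 0.00125% in that order. These are shares of unscaled total counts, and no test was run on them.

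**Figure D4:**
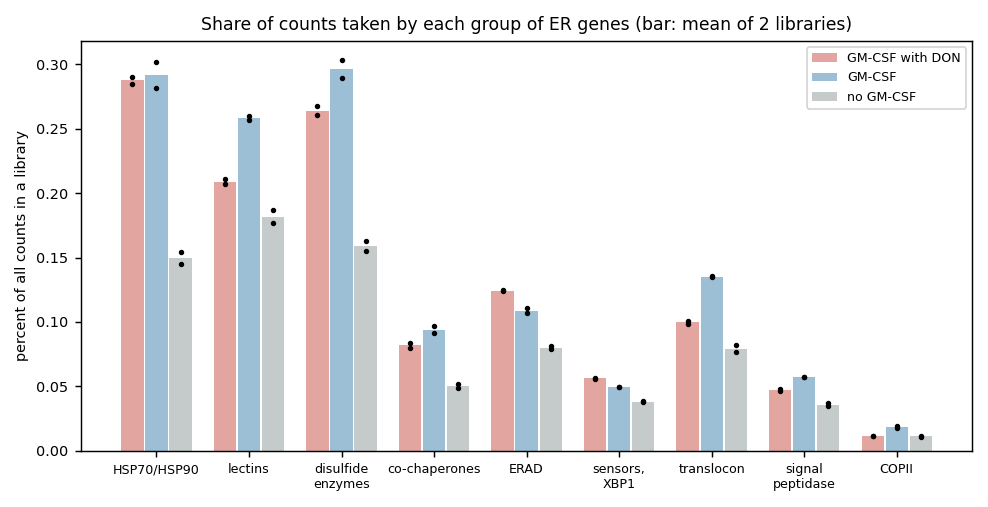
Percent of all counts in a library taken by each of 9 groups of the ER genes; bars are means of 2 libraries (GM-CSF with DON, GM-CSF alone, no GM-CSF from left to right) and points are the libraries. The 6 degradation genes of the list and the stress sensors with Xbp1 are highest with DON. The translocon and the COPII genes of the list are highest with GM-CSF alone.

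Levels of different genes can be compared only per length, for which the authors' deposited FPKM values (values scaled for gene length and library size) were used. Calr had the highest level of the 38 in every group, at 760.4 ± 29.0 FPKM with DON, 995 ± 10.5 FPKM with GM-CSF alone and 733 ± 46.5 FPKM without GM-CSF (SD, n = 2). Hspa5 was second with DON (595 ± 17.8 FPKM) and without GM-CSF (312 ± 12.5 FPKM), and next after Hsp90b1 with GM-CSF alone (505 ± 35.2 FPKM). There Hsp90b1 stood at 536 and 548 FPKM in its libraries, against 480.4 and 530.1 FPKM for Hspa5. P4hb and Pdia3 came next with GM-CSF alone, at 416 ± 9.36 and 409 ± 7.0 FPKM, and their difference was smaller than either SD. At the other end were the kinases that sense stress. Ern1 had 8.90 ± 0.57 FPKM with DON, 6.15 ± 0.32 FPKM with GM-CSF alone and 7.47 ± 0.77 FPKM without GM-CSF, and Eif2ak3 had 7.65 ± 0.02, 8.32 ± 0.07 and 8.46 ± 0.25 FPKM in that order. The channel subunits were unequal, with Sec61g at 10.6 ± 0.13, 16.5 ± 1.76 and 8.98 ± 0.06 FPKM and Sec61b at 148 ± 4.78, 209 ± 6.25 and 127 ± 4.93 FPKM with DON, with GM-CSF alone and without GM-CSF.

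Neighbouring parts of the pathway were followed through 7 further lists of 95 genes, of which 91 were tested. With GM-CSF 52 were higher and 10 lower, where 27.5% of all genes tested were called higher and 29.3% lower. With DON, relative to GM-CSF alone, 26 were higher and 39 lower, where the shares over all genes were 28.8% and 28.8%. The part called higher with DON was thus close to that of all genes. The same shares apply beside the counts of each list below. Oligosaccharyltransferase, the enzyme that attaches glycans as proteins enter the ER, had 9 of 10 genes higher with GM-CSF, among them Rpn2 (0.65 ± 0.04) and Rpn1 (0.70 ± 0.04), and 7 of 10 lower with DON, among them Rpn1 (-0.63 ± 0.04) and Dad1 (-0.49 ± 0.05); Krtcap2 (0.26 ± 0.06) and Tusc3 (0.39 ± 0.05) rose with DON. Among 11 other COPII genes 7 rose with GM-CSF and none fell, led by Sec23a (0.61 ± 0.06) and Sec24a (0.57 ± 0.06), and with DON 9 fell and none rose, led by Sec23a (-0.99 ± 0.06) and Sec13 (-0.57 ± 0.06). Sec23a, the other inner coat gene beside Sec23b, measured 22.1 and 22.7 CPM with DON, 43.7 and 45.2 CPM with GM-CSF alone, and 28.7 and 29.5 CPM without GM-CSF.

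Of 13 genes of the signal recognition particle and of translocation, 9 rose with GM-CSF, among them Sec63 (0.58 ± 0.04) and Srp19 (0.60 ± 0.06), and with DON 7 fell and 2 rose. Those that fell included Srp9 (-0.37 ± 0.06) and Srp54a (-1.0 ± 0.17), a gene with near-identical copies in the mouse, so that its counts are uncertain; Srp72 rose (0.22 ± 0.05). Among 22 other folding enzymes, 12 rose and 2 fell with GM-CSF, and 4 rose and 10 fell with DON. Fkbp11, a prolyl isomerase of secretory cells, measured 7.27 and 6.97 CPM with DON, 18.8 and 20.4 CPM with GM-CSF alone, and 1.94 and 1.96 CPM without GM-CSF, with log2 fold changes of 3.33 ± 0.11 for GM-CSF and -1.46 ± 0.09 for DON. Txndc5, a further disulfide isomerase, had 0.71 ± 0.05 and -0.71 ± 0.05. Erp29, an ER lumenal protein, fell with GM-CSF (-0.42 ± 0.04) and again with DON (-0.54 ± 0.05).

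Of 15 other degradation genes 5 rose and 4 fell with GM-CSF, and 3 rose and 4 fell with DON. These counts are not far from the shares over all genes tested. Vcp, the ATPase that pulls proteins out of the ER, measured 333 and 322 CPM with DON, 576 and 564 CPM with GM-CSF alone, and 460.3 and 442 CPM without GM-CSF, so that it lay lowest with DON (log2 fold changes 0.34 ± 0.04 for GM-CSF and -0.80 ± 0.04 for DON). Its cofactor Nploc4 also fell with DON (-0.44 ± 0.05), and the ubiquitin-conjugating enzyme gene Ube2g2 fell with GM-CSF (-0.39 ± 0.05). Derl3, a further derlin, rose with GM-CSF but at low levels: 1.82 and 1.87 CPM with DON, 1.58 and 2.01 CPM with GM-CSF alone, and 6 and 2 counts in the libraries without GM-CSF. Among 9 other stress transducers, 2 rose and 2 fell with GM-CSF. Those that fell were Mbtps2 (-0.53 ± 0.06), a protease that activates ATF6, and Atf6b (-0.23 ± 0.05), a relative of ATF6. With DON 5 rose and 2 fell, led by Bbc3 (2.13 ± 0.09), a cell death gene, and Nfe2l1 (0.46 ± 0.04), which controls proteasome genes. In the arm downstream of PERK and related kinases, 8 of 11 genes tested were higher and 2 lower with GM-CSF, and 10 rose with DON. Ddit3 (CHOP) measured 125 and 124 CPM with DON, 21.2 and 20.01 CPM with GM-CSF alone, and 18.5 and 22.6 CPM without GM-CSF. Trib3 (log2 fold change 2.34 ± 0.08), Atf5 (0.97 ± 0.06) and Atf4 (0.85 ± 0.06) also rose with DON, and all 3 had risen with GM-CSF. Asns rose with GM-CSF (2.18 ± 0.07) and was not called with DON (-0.05 ± 0.07).

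The strand setting of the counting is not given in the sources used here, and 11 of the 38 genes share exonic bases with a gene on the opposite strand in the GRCm38 annotation, among them Hsp90b1, Pdia6, Manf, Sec61a1 and Ssr2. A further limit is that 3 genes share bases with a gene on the same strand, and Calr and Spcs2 have a pseudogene that bears their symbol. Counts of these genes could thus include reads of their neighbours or copies. Pseudogenes under other symbols were not sought, so the remaining genes may have copies too.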

How the data were processed

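RNA had been extracted with the RNeasy mini plus kit and sequenced on an Illumina HiSeq 4000, per the labels' protocols, from 6 libraries in 3 groups of 2. The deposited table of whole-number counts per gene symbol was used for every test. The deposited FPKM values were used only to compare levels between genes. Tools named in the submitters' processing notes, with no role given, are STAR 2.6.0a, featureCounts with Subread 1.4.6, and DESeq2 1.28.1, and the build is mm10. Annotation, strand setting and filters: not given in the sources used here. No column of values was left unused.

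Genes were filtered with filterByExpr (minimum count 10), leaving 12340 of 16840, TMM-scaled, and fitted in 1 model of all 6 libraries with edgeR 4.0.16 (quasi-likelihood F test, two-sided, Benjamini-Hochberg over all genes tested, R 4.3.3). There were 3 residual degrees of freedom and a common biological coefficient of variation of 0.0501. No replicate columns were identical; the chi-square per degree of freedom between replicates was 4.67 with DON, 5.54 with GM-CSF alone and 8.90 without GM-CSF. The procedure was also run on simulated data, and the outcome is not given here. The alternatives were other scalings, no filter, a replicate block, DESeq2 1.42.0, limma-voom (limma 3.58.1), fits of only the groups compared, and leaving out each library in turn.

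The members and all gene lists were chosen with earlier results of these data known. The genes given with values were, in each role group, those with the smallest adjusted p, the 3 sensors with Hspa5 and Xbp1, and those moving against their group, and values of the other members were added. From each further list the 2 called genes with the smallest adjusted p in each comparison were named, with Atf4, Ddit3 and Trib3. Promoter windows came from RefSeq (GRCm38.p6) and gene positions from a GRCm38 annotation; matches were exact.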

Additional observations from a re-analysis of the deposited data

How the results depend on the processing

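Of 1710 values of the 38 genes under 15 alternatives, 1626 kept their direction and their side of the threshold, 51 kept the direction but lost the call, 18 gained a call and 15 changed sign. The sign changes were all of genes that were not called. The log2 fold change of Eif2ak3 for GM-CSF was 0.11 with total counts as the only scaling, 0.0007 with DESeq2 and 0.0109 with only the groups compared. For DON against GM-CSF alone, Sdf2l1 had -0.0028 with total counts, and P4hb had 0.0591 and Ssr4 0.0438 with upper quartile scaling. When single libraries were left out, these values ranged from -0.0232 to 0.066 for Sdf2l1, -0.0642 to 0.027 for P4hb, -0.0789 to 0.0186 for Ssr4 and -0.0192 to 0.0799 for Derl2. For DON against no GM-CSF they ranged from -0.0517 to 0.1084 for Sec11c and -0.0175 to 0.135 for Atf6. Ddit3, for GM-CSF, had -0.0307 with upper quartile scaling and between -0.1344 and 0.1553 without single libraries. The number of the 38 genes called lower with GM-CSF was 1, but 0 with total counts, 2 with upper quartile scaling, 2 with limma-voom, and 0 to 2 without single libraries; Atf6 and Ern1 were the genes involved. Further ER and stress genes called lower with DON against no GM-CSF numbered 13, and 7 with total counts. The causes were not tested.

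Upper quartile scaling took away the calls of Canx, Hyou1, Pdia4, Dnajc3 and Spcs2 for DON, leaving 10 of the 38 genes higher and 18 lower. Total counts alone moved the median log2 fold change of all genes to 0.10 for GM-CSF and 0.11 for DON against no GM-CSF, with 4587 genes higher and 2689 lower (3393 and 3621 under the scaling used) and 4408 higher and 2745 lower (3353 and 3506). Without single libraries, 34 to 35 of the 38 genes were higher with GM-CSF; for DON 8 to 10 were higher and 19 to 23 lower, and against no GM-CSF 25 to 29 were higher.

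The labels do not say whether replicate numbers pair the samples. Deviations of samples with the same number were correlated over 8164 genes. The correlation was 0.07 between GM-CSF with DON and GM-CSF alone and -0.05 between GM-CSF alone and no GM-CSF. It was -0.31 between GM-CSF with DON and no GM-CSF. With 2 libraries a group each group gives a single difference, so these correlations cannot decide whether the samples were paired. With the replicate block 34 of the 38 genes were higher and 1 lower for GM-CSF, 9 higher and 22 lower for DON, and 29 higher and 1 lower against no GM-CSF, while the calls over all genes were 6708, 6882 and 6542, against 7014, 7111 and 6859 without the block. The calls of the list lost under the block were those of Derl2 for GM-CSF (adjusted p = 0.0636 in edgeR's test), Pdia4 for DON (0.0762) and Ssr1 for DON against no GM-CSF (0.0531). A crossed pairing, with the numbers of the group without GM-CSF exchanged, was added after seeing the data and called 7220, 7303 and 7063 genes, and of the 38 genes 2 lower with GM-CSF.

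Every gene of the list had at least 161 counts in each library. Sec61g, with the lowest counts, had an SE of 0.11 for GM-CSF against no GM-CSF, where the median of the list was 0.05. Its log2 fold change of 0.28 ± 0.12 for DON against no GM-CSF was not called, while the smaller 0.13 ± 0.05 of Ssr1 was. Whether depth limited the calls of the list was not tested. The number of libraries, 2 a group, limits the precision.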
